A study of Mus musculus with 10 samples.

Results

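The cardiac muscle genes described here are Myh6, Myl7, Myl4, Mybpc3, Actc1, Tnnt2, Tnni3, Ryr2, Sln and Nppa, which encode contractile, calcium handling and hormone products of heart muscle. They were taken from the gene count table by symbol, 10 genes of 54532 in the table, and each matched 1 row. The counts came from RNA sequencing of total RNA from whole lung of wild-type (WT) mice. The 10 libraries fell into 3 groups: Vehicle (3 libraries), lipopolysaccharide (LPS, 3 libraries) and LPS with recombinant thymic stromal lymphopoietin given beforehand (LPS+TSLP, 4 libraries). LPS is a component of the outer membrane of Gram-negative bacteria that activates innate immunity, and TSLP is a cytokine made by epithelial cells. All mice were wild type, and their strain, age and sex, the doses, the routes and the times are not given in the sources used here. The labels do not say whether the libraries of a group came from separate animals, so the p-values measure the spread between these libraries, which may be technical.

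In mice, a sleeve of striated cardiac muscle continues from the left atrium along the wall of the pulmonary veins and reaches into the lung. Its cells contract, conduct impulses and carry the proteins of atrial muscle. In a sarcomere, myosin thick filaments pull on actin thin filaments. Troponin on the thin filament lets them do so when calcium leaves the sarcoplasmic reticulum through the ryanodine receptor, and the calcium pump ends the contraction. Atrial muscle also stores and secretes atrial natriuretic peptide, which acts on receptors in vessels and kidney. Muscle of the pulmonary veins and muscle of the atrium itself share these genes. The labels give the tissue only as lung, and the 2 sources cannot be told apart by these genes.

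The stretches of DNA just before the gene starts are shown for 4 genes. Myl7, Mybpc3 and Tnnt2 moved together from library to library. By the SD of log2 levels within groups, Ryr2 varied less than they did (1.10, against 1.74 to 3.73). The sequences are the 250 bases before the RefSeq start of each gene on build GRCm38.p6, written 5' to 3' on the strand of the gene. They lie at chr11:5898783-5899032 (Myl7, minus strand), chr2:91117894-91118143 (Mybpc3, plus strand), chr1:135836084-135836333 (Tnnt2, plus strand) and chr13:12106946-12107195 (Ryr2, minus strand). Capitals mark a CArG box (bound by serum response factor), a MEF2 site, GATAA (the core read by GATA factors) or AGGTGT (a partial site of TBX5), on either strand.
Myl7: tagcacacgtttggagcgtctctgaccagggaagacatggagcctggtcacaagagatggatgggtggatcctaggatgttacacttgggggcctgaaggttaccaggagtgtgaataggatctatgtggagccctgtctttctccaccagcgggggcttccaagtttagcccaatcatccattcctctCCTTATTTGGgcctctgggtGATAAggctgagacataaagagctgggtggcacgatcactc
Mybpc3: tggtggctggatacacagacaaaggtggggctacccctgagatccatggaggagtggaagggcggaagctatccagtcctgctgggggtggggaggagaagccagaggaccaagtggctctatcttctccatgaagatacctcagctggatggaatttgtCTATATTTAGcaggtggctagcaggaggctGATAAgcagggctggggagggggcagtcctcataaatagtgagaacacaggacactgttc
Tnnt2: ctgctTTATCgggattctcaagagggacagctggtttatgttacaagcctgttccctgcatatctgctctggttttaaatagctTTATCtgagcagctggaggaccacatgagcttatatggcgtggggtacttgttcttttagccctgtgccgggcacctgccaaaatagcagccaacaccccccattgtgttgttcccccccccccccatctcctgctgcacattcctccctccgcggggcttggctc
Ryr2: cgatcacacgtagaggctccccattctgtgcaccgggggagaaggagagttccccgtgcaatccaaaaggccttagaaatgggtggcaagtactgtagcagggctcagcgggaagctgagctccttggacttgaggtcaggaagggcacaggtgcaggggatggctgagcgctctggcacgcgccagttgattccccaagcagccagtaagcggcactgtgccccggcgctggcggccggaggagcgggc
RefSeq promoters were found for 9 of the 10 genes, with 2 for Tnnt2, and Sln had no entry. A CArG box stood before 2 genes, Myl7 and Actc1, and in 1.47% of the 32851 promoters of all genes cut to the same length. A MEF2 site stood before Mybpc3 and in 1.69% of all promoters. GATAA stood before 4 genes, Myl7, Mybpc3, Tnnt2 and Nppa, and in 22.6% of all promoters. AGGTGT stood before Nppa and Tnni3 and in 11.8% of all promoters. Other letters searched on both strands were AAGTG (5 genes, 40.7% of all promoters), TATAAA (1 gene, 12.4%) and CATTCC (3 genes, 12.6%). A base could belong to matches of more than 1 motif. The Ryr2 stretch held none of the 7 motifs, and a match or its absence describes these letters only.

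Total counts per library ran from 16175172 to 18374461, so 1 read was worth about the same in each library, and levels are given as CPM, the count scaled to a common library total. Some libraries stood apart. LPS+TSLP replicate 1 had 13.1% of its counts in mitochondrial genes, against 1.11% to 6.50% in the other 9 libraries. LPS replicate 1 had 190 CPM of Xist and no read of Ddx3y, a gene of the Y chromosome, while the other 9 libraries had at most 0.455 CPM of Xist and at least 6.15 CPM of Ddx3y. Ddx3y was at 6.15 to 11.9 CPM in Vehicle and at 57.7 to 96.1 CPM in the other libraries that had it. For the 10 cardiac genes, the calls that changed without LPS replicate 1 or LPS+TSLP replicate 1 are given with their values.

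Most of the cardiac genes differed widely between libraries of the same group. Vehicle replicate 2 and LPS+TSLP replicate 1 were among the 4 highest libraries for all 10 genes, LPS replicate 3 for 9 genes and LPS+TSLP replicate 3 for 7 genes. LPS+TSLP replicate 1 was the highest library for 6 genes and Vehicle replicate 2 for the other 4. At the other end, LPS replicate 2, LPS+TSLP replicate 2 and LPS+TSLP replicate 4 were each among the 3 lowest libraries for 7 genes. Each treatment group held at least 1 of the high libraries, while the 3 low ones were in LPS and LPS+TSLP, and Vehicle replicates 1 and 3 had a median rank of 6.5 over the 10 genes. Each gene's log2 CPM was centred on its own mean and the centred values were averaged over the 10 genes. That average was 2.95 in Vehicle replicate 2, 2.88 in LPS+TSLP replicate 1, 1.92 in LPS replicate 3 and 0.74 in LPS+TSLP replicate 3. It was -0.63 and -0.89 in Vehicle replicates 1 and 3, -0.51 in LPS replicate 1, -1.75 in LPS+TSLP replicate 2, -2.32 in LPS+TSLP replicate 4 and -2.39 in LPS replicate 2. In bulk tissue, fewer cardiac muscle cells in a sample and less of these RNAs per cell cannot be told apart.

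**Figure D1:**
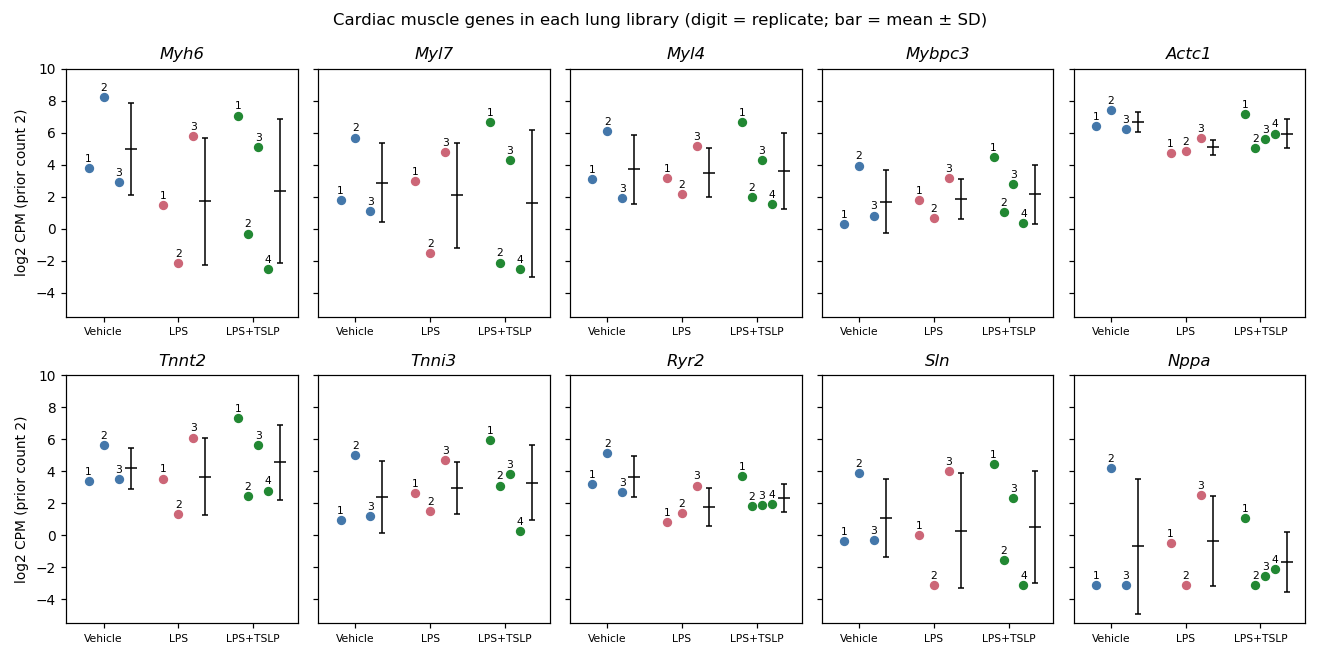
Level of each cardiac gene in each lung library, as log2 CPM (TMM scaled, prior count 2) on the vertical axis, with the group on the horizontal axis, the replicate number beside each point and the group mean ± SD as a bar. Vehicle replicate 2, LPS replicate 3 and LPS+TSLP replicate 1 sit at the top of their groups for every gene, while Actc1 has the narrowest spread.

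Among the thick filament genes, Myh6 encodes the alpha-myosin heavy chain, the fast motor of atrial muscle and of the adult mouse heart (chromosome 14, 54941921-54966927, GRCm38, minus strand, protein coding). Myh6 was at 14.0, 307 and 7.66 CPM in Vehicle replicates 1 to 3, at 2.41, 0.114 and 54.0 CPM in LPS, and at 129, 0.700, 35.1 and 0.0608 CPM in LPS+TSLP replicates 1 to 4. The ends of this range were 5647 counts in Vehicle replicate 2 and 1 count in LPS+TSLP replicate 4. The SD of log2 CPM within groups was 3.93 for Myh6, higher than for 99.99% of the 17139 genes tested, whose median was 0.40. Of the 50-base stretches of its transcripts, 20.2% also occur in the neighbouring heavy chain gene Myh7, so reads from such stretches can be assigned to either gene or to none.

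Myl7, the regulatory light chain of atrial myosin (chromosome 11, 5896637-5898782), was at 3.43, 52.4 and 2.10 CPM in Vehicle. It was at 7.11, 0.228 and 27.5 CPM in LPS and at 97.7, 0.117, 19.7 and 0.0608 CPM in LPS+TSLP. The 2 lowest LPS+TSLP libraries held 2 and 1 counts, where replicate 1 of the same group held 1581. Its partner Myl4, the essential light chain of atrial myosin (chromosome 11, 104550663-104595753), was at 8.68, 70.5 and 3.80 CPM in Vehicle, at 7.95, 4.38 and 35.3 CPM in LPS and at 99.1, 3.85, 19.4 and 2.80 CPM in LPS+TSLP. Both light chains had the same order of the 3 highest libraries, LPS+TSLP replicate 1, Vehicle replicate 2 and LPS replicate 3, but Myl4 kept at least 46 counts in every library. Per length of exon, Myl7 stood at 7.75 times the level of Myl4 in LPS+TSLP replicate 1 and at 0.238 times its level in LPS+TSLP replicate 2. Mybpc3, cardiac myosin-binding protein C, which links thick and thin filaments (chromosome 2, 91118144-91136516), was at 1.14, 15.5 and 1.70 CPM in Vehicle, at 3.02, 1.48 and 8.86 CPM in LPS and at 21.0, 1.93, 6.94 and 1.16 CPM in LPS+TSLP. The groups overlapped for all 4 thick filament genes.

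On the thin filament, Actc1 encodes cardiac alpha-actin (chromosome 2, 114047282-114053548, minus strand). It was at 86.1, 172 and 75.9 CPM in Vehicle, at 24.5, 28.7 and 49.6 CPM in LPS and at 138, 32.7, 49.0 and 61.1 CPM in LPS+TSLP. All 3 Vehicle libraries were above all 3 LPS libraries, and the LPS+TSLP libraries spanned from within the LPS range to within the Vehicle range. Actc1 held at least 438 counts in every library and had the smallest spread of the 10 genes, with an SD of 0.74 on the log2 scale within groups. Even so, that SD lay at percentile 82.4 of all genes tested, whose median was 0.40, and at percentile 96.45 of genes at a similar level. In LPS replicate 2, where Myh6 and Myl7 held 2 and 4 counts, Actc1 held 504. Per length, it was the highest of the 10 in that library at 17.7 RPKM (CPM per kilobase of exon), followed by Tnni3 at 1.32 RPKM, and it was also the highest in Vehicle replicate 2 at 107 RPKM, followed by Myl7 at 88.7 RPKM. In LPS+TSLP replicate 1 the order was turned, with Myl7 at 166 RPKM and Actc1 at 85.6 RPKM.

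Tnnt2 encodes cardiac troponin T, which anchors troponin on tropomyosin (chromosome 1, 135836354-135852260). It was at 10.5, 51.6 and 11.8 CPM in Vehicle, at 10.7, 2.39 and 69.2 CPM in LPS and at 158, 5.43, 51.8 and 6.87 CPM in LPS+TSLP. Tnni3 encodes cardiac troponin I, the inhibitory subunit (chromosome 7, 4518305-4524229). It was at 1.89, 32.7 and 2.27 CPM in Vehicle, at 5.60, 2.73 and 26.1 CPM in LPS and at 60.5, 8.70, 14.3 and 1.09 CPM in LPS+TSLP. The 2 troponin subunits had the same highest library, LPS+TSLP replicate 1, and all 3 groups overlapped for both. LPS+TSLP replicate 2 stood at the fifth rank for Tnni3, at 149 counts, while it held 2 counts of Myl7. Tnni3 overlaps the gene Dnaaf3 on the same strand, so its counts may include or lack reads of the shared stretch.

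Of the calcium handling genes, Ryr2 encodes the calcium release channel of the sarcoplasmic reticulum (chromosome 13, 11553102-12106945, minus strand). It was at 9.14, 35.6 and 6.69 CPM in Vehicle, at 1.57, 2.50 and 8.53 CPM in LPS and at 12.4, 3.44, 3.72 and 3.77 CPM in LPS+TSLP. Vehicle and LPS overlapped by 1 library, LPS replicate 3, which was above Vehicle replicate 3. Ryr2 was the lowest of the 10 genes per length in Vehicle replicate 2, at 1.24 RPKM. Sln encodes sarcolipin, a small inhibitor of the calcium pump that is found in atrial muscle (chromosome 9, 53850164-53854560). It was at 0.686, 15.1 and 0.737 CPM in Vehicle, at 0.840, 0 and 15.9 CPM in LPS and at 21.6, 0.233, 4.94 and 0 CPM in LPS+TSLP. A count of 0 allows up to 3 counts, or 0.171 CPM in LPS replicate 2 and 0.182 CPM in LPS+TSLP replicate 4, which covers counting error only.

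Nppa encodes the precursor of atrial natriuretic peptide, the hormone that atrial muscle releases when stretched (chromosome 4, 148000722-148002079). It held 0, 339 and 0 counts in Vehicle, 10, 0 and 103 in LPS and 32, 0, 1 and 2 in LPS+TSLP. These counts are 18.5 CPM in Vehicle replicate 2, 5.70 CPM in LPS replicate 3 and 1.98 CPM in LPS+TSLP replicate 1. The 4 libraries at 0 allow at most 0.170 to 0.175 CPM. The 3 libraries that carried most Nppa were the 3 that ranked highest for Myl7 and Myl4, but in another order. LPS+TSLP replicate 1 had the highest Myl4 level of all, 99.1 CPM, and an Nppa level below those of Vehicle replicate 2 and LPS replicate 3.

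Summed over the 10 genes, the level ran from 42.5 CPM in LPS replicate 2 to 771 CPM in Vehicle replicate 2. Actc1 and Ryr2 varied least by the SD of log2 CPM within groups, at 0.74 and 1.10, and were left out after their values were seen. Over all 10 libraries, though, the highest level of Ryr2 was 22.7 times its lowest, and that of Mybpc3 18.4 times. The sum of the 8 genes without Actc1 and Ryr2 was 40.3, 564 and 30.1 CPM in Vehicle, 38.2, 11.3 and 242 CPM in LPS and 590, 21.0, 152 and 12.2 CPM in LPS+TSLP. The highest library thus had 52.1 times the sum of the lowest. As a description over the 10 libraries, the 28 pairs among those 8 genes had Pearson correlations of log2 CPM from 0.70 to 0.96, with a median of 0.89, and the median was 0.93 once group means were taken out. Actc1 correlated with these 8 genes at 0.39 to 0.71, and at 0.68 to 0.85 once group means were taken out. Ryr2 correlated with them at 0.52 to 0.78, and at 0.69 to 0.90 once group means were taken out. All such correlations share the library, its depth and its scaling.

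**Figure D2:**
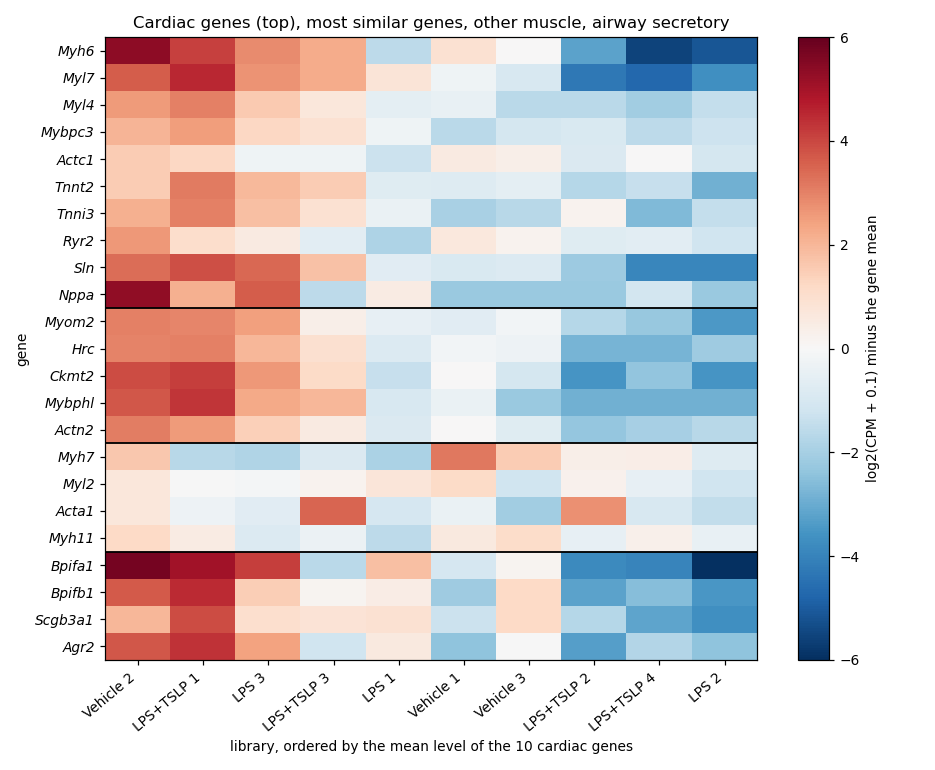
Heat map of log2(CPM + 0.1) minus the mean of the gene, with libraries on the horizontal axis ordered by the average level of the 10 cardiac genes, and genes on the vertical axis in 4 blocks. Most of the 10 cardiac genes and the 5 most similar genes have their highest levels in the libraries at the left. Actc1 and Ryr2 follow that order less closely, and Myh7, Myl2, Acta1 and Myh11 do not show it. The airway secretory genes are high in Vehicle replicate 2 and LPS+TSLP replicate 1. In LPS+TSLP replicate 3, Bpifa1 and Agr2 are below their means and Scgb3a1 is above its mean, at 241 CPM.

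Markers of other muscle were read beside these genes. Of the ventricular markers, Irx4 was at 0 in all 10 libraries, and Myl2, the ventricular regulatory light chain, held 0 to 7 counts. Myl3, the ventricular essential light chain that slow skeletal muscle also makes, held 120 counts in Vehicle replicate 2, 53 in LPS+TSLP replicate 1, 26 in LPS+TSLP replicate 3 and 12 in LPS replicate 3, and 0 to 2 elsewhere. Myh7, the beta-myosin heavy chain of ventricular and slow skeletal muscle, went another way. It was at 24.4, 8.22 and 7.60 CPM in Vehicle, at 0.616, 1.48 and 0.664 CPM in LPS and at 0.742, 3.33, 1.39 and 3.41 CPM in LPS+TSLP, so that the 2 heavy chain genes had different highest libraries. The 5 ventricular markers summed to 4.10 to 29.8 CPM, of which 1 to 3 markers were at 0 in a library.

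The heart transcription factor Nkx2-5 was seen in the libraries that were high in cardiac genes, with 29 counts in Vehicle replicate 2, 12 in LPS+TSLP replicate 1, 1 each in LPS replicate 3 and LPS+TSLP replicate 3, and 0 in the other 6. Bmp10, a hormone of the atria, held 4 counts in LPS+TSLP replicate 1 and 0 in the other 9 libraries. Skeletal muscle markers summed to 16.1 to 47.3 CPM over 23 genes. Their highest library was LPS+TSLP replicate 3, where skeletal actin Acta1 and the fast heavy chain Myh4 each held 86 counts and parvalbumin Pvalb 35, while Myod1 was at 0 in every library. The part of skeletal muscle in the level of LPS+TSLP replicate 3 was not tested.

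**Figure D3:**
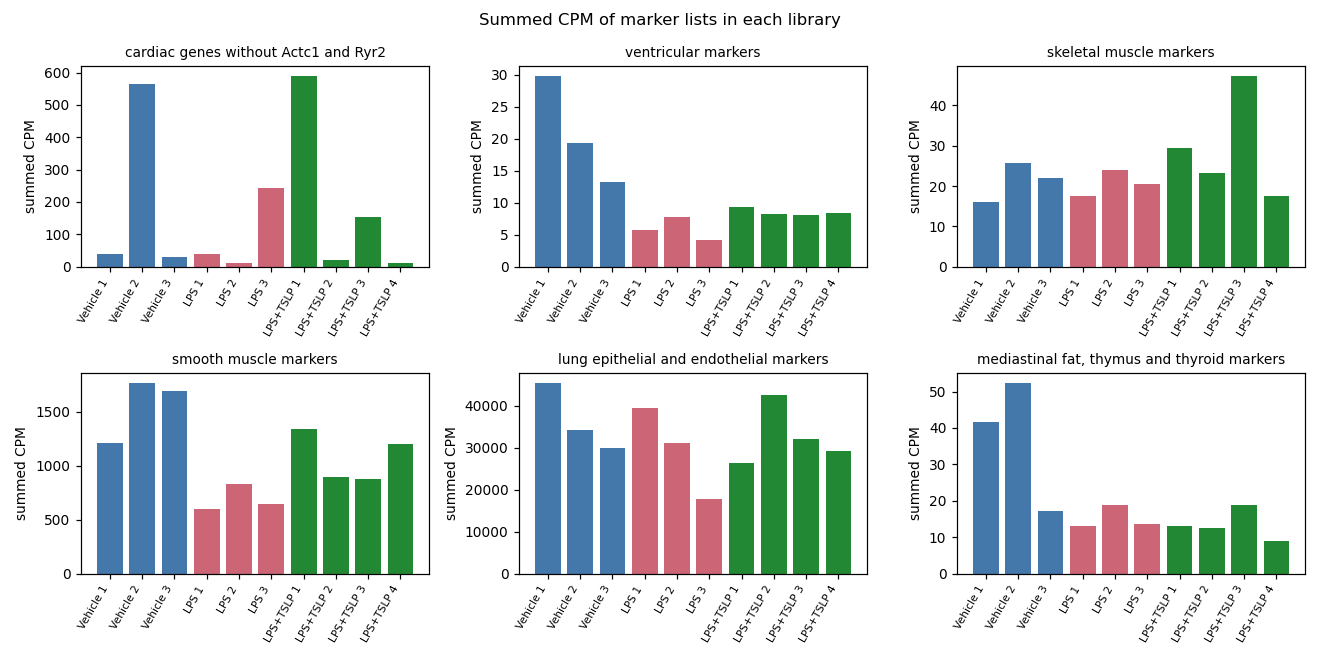
Summed CPM of 6 gene lists in each library, with a linear vertical axis that starts at 0 in each panel. The 8 cardiac genes without Actc1 and Ryr2 vary from 11.3 to 590 CPM, while the smooth muscle list is lower in all 3 LPS libraries (599 to 827 CPM) than in all 3 Vehicle libraries (1216 to 1770 CPM).

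The first comparison, LPS against Vehicle, addressed what LPS alone did to the lung. Of the 10 cardiac genes 1, Actc1, fell, none rose, and 24.9% of all 17139 genes tested were called (10.7% called lower), by edgeR's quasi-likelihood test with Benjamini-Hochberg adjustment at an adjusted p under 0.05. Actc1 averaged 111 ± 53.0 CPM in Vehicle and 34.3 ± 13.4 CPM in LPS (SD, n = 3 each), with a log2 fold change of -1.64 (SE 0.52, edgeR adjusted p = 0.0406), or 3.12-fold lower. All LPS libraries were below all Vehicle libraries for 28% of all genes tested, and the share of the cardiac genes called lower is near the background. Ryr2 was next, at -1.98 (SE 0.80, edgeR adjusted p = 0.0905), from 17.1 ± 16.0 to 4.20 ± 3.78 CPM. Myh6 had the largest estimate, -2.50, but with an SE of 2.17 and an edgeR adjusted p of 0.417. The other 7 genes had estimates from -1.51 (Nppa, SE 1.98) to 0.21 (Tnnt2, SE 1.29). Estimates were below 0 for 8 of the 10 genes, with a median of -0.71 against 0.01 over all genes tested, but their SE of 0.52 to 2.17, with a median of 1.33, compares with a median of 0.32 over all genes.

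The Actc1 call rested on several libraries. It was lost without Vehicle replicate 1 (log2 fold change -1.79, edgeR adjusted p = 0.0761), Vehicle replicate 2 (-1.18, 0.164), LPS replicate 1 (-1.48, 0.145), LPS replicate 2 (-1.51, 0.112) or LPS+TSLP replicate 4 (-1.62, 0.0514), and with the replicate number as a block (-1.63, 0.0999). Its direction stayed below 0 in all 18 alternatives, and the call was kept in 10 of them. Ryr2 passed without LPS replicate 3, at -2.96 (edgeR adjusted p = 0.0392).

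The second comparison, LPS+TSLP against LPS, addressed the effect of TSLP before LPS. None of the 10 cardiac genes was called, and neither was any other gene (0% of 17139) by edgeR, where 1388 genes (8.1%) and none of the 10 had an unadjusted p under 0.05. DESeq2 called 34 genes and limma-voom 0, none of them cardiac. The estimate of Actc1 was 1.03 (SE 0.49, edgeR unadjusted p = 0.0589, adjusted p = 0.633), from 34.3 ± 13.4 CPM (SD, n = 3) to 70.3 ± 46.9 CPM (SD, n = 4). Nppa had an estimate of -1.95 (SE 1.96), and the other 8 genes had estimates from 0.27 (Sln) to 1.35 (Myl7). The median of the 10 estimates was 0.94, against 0.02 over all genes, and it came to -0.54 over 9 genes when LPS+TSLP replicate 1 was left out. Without that library 8 of those 9 estimates changed sign, and that of Actc1 was 0.41.

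The third comparison set the LPS+TSLP lungs against the Vehicle lungs. None of the 10 cardiac genes was called by edgeR, while 14.2% of all genes tested were called. None of the 10 had an unadjusted p under 0.05, against 33% of all genes, and DESeq2 and limma-voom called none of the 10 either. Ryr2 had an estimate of -1.51 (SE 0.72, edgeR adjusted p = 0.168) and averaged 5.83 ± 4.36 CPM in LPS+TSLP (SD, n = 4). Nppa had an estimate of -3.46 (SE 1.97, edgeR adjusted p = 0.245). The estimate of Actc1 was -0.61 (SE 0.47, edgeR adjusted p = 0.391), and those of Tnnt2 and Tnni3 were 1.23 (SE 1.25) and 0.84 (SE 1.25). Without LPS+TSLP replicate 1, the library with the high mitochondrial share, both Actc1 (-1.22, edgeR adjusted p = 0.0359) and Ryr2 (-2.22, 0.0484) were called lower. This comparison shares its Vehicle libraries with the first one and its LPS+TSLP libraries with the second one.

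**Figure D4:**
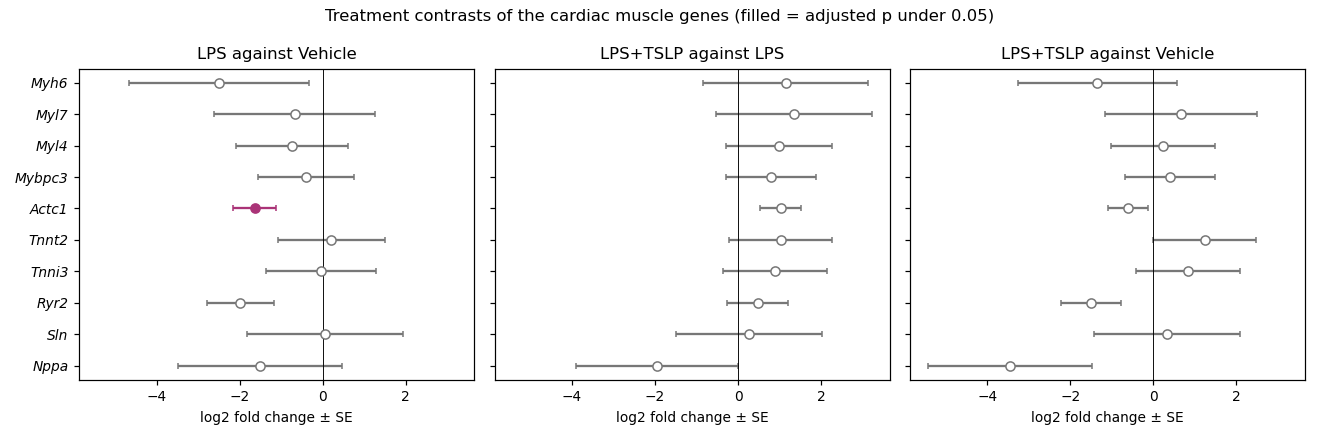
Log2 fold change ± SE of each cardiac gene on the horizontal axis, from the fit of all 10 libraries, for the 3 comparisons. Filled points have an adjusted p under 0.05, which holds for Actc1 in LPS against Vehicle alone.

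Leaving out single libraries showed how far the estimates depend on the libraries with high levels. In LPS against Vehicle, the estimate of Myh6 ran from -6.25 to 0.82 over the 10 fits with 1 library left out, that of Myl7 from -2.19 to 2.12 and that of Tnni3 from -1.40 to 2.51. Without Vehicle replicate 2 only 2 of the 10 estimates, those of Actc1 and Ryr2, stayed below 0, and the median became 1.55. Without LPS replicate 3 all 10 were below 0, with a median of -2.10. Actc1 ran from -1.95 to -1.18 and Ryr2 from -2.96 to -0.87, and those 2 genes alone kept their sign in every such fit of this comparison.

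**Figure D5:**
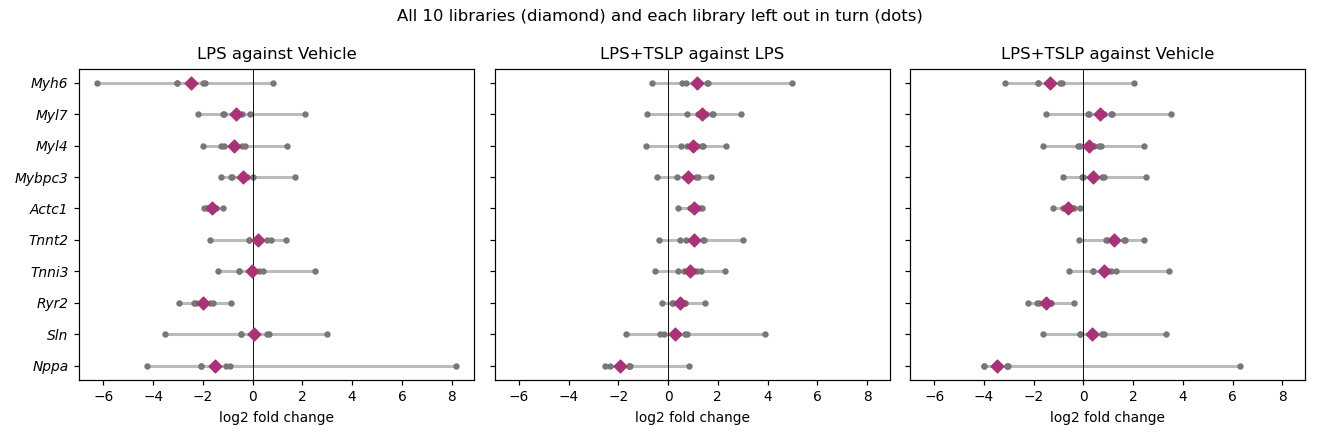
Log2 fold change of each cardiac gene with all 10 libraries (diamond) and with each library left out in turn (dots, joined by a line), for the 3 comparisons. In LPS against Vehicle the dots of Actc1 and Ryr2 stay below 0, while those of the other 8 genes lie on both sides of 0.

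Other genes of the same systems were taken from lists. Of 24 tested calcium handling and excitation genes, 8 fell with LPS against Vehicle and none rose, with a median estimate of -1.08, where 10.7% of all genes tested were called lower. Hrc and Casq2 ranked highest in this list by correlation with the average cardiac level, and neither was called (-1.02, SE 1.65, and -1.11, SE 1.58). Trdn had the highest estimate of the list, 3.83 (SE 1.64), and was not called either. Kcnq1, a potassium channel of repolarisation, went from 33.2 ± 8.79 to 14.5 ± 1.51 CPM, with a log2 fold change of -1.13 (SE 0.24, edgeR adjusted p = 0.00892). Gja5, the connexin of atrial muscle and arterial endothelium, went from 70.1 ± 16.8 to 27.6 ± 11.0 CPM, with -1.27 (SE 0.30, edgeR adjusted p = 0.0128). Jph2, which joins the sarcoplasmic reticulum to the cell membrane, went from 62.4 ± 9.13 to 22.9 ± 3.74 CPM, with -1.37 (SE 0.33, edgeR adjusted p = 0.0134). For Kcnq1, Gja5 and Jph2 the lowest Vehicle library, at 23.1, 54.6 and 54.8 CPM, was above the highest LPS library, at 16.2, 38.8 and 27.1 CPM, as it was for 28% of all genes tested. The count of 8 became 10 without LPS+TSLP replicate 1, 3 without Vehicle replicate 1, 2 without Vehicle replicate 2 and 5 if LPS replicate 1 was left out, and it was 4 with the GC trend removed. The call of Gja5 was lost without Vehicle replicate 1, and that of Jph2 without Vehicle replicate 2 and with the GC trend removed (edgeR adjusted p = 0.0733).

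Of the natriuretic and atrial hormone genes, 3 of 5 tested fell with LPS, where 10.7% of all genes tested were called lower. Npr1, the receptor of atrial natriuretic peptide, went from 172 ± 35.1 to 62.9 ± 5.57 CPM, with a log2 fold change of -1.38 (SE 0.26, edgeR adjusted p = 0.0062). Pam, which amidates peptide hormones and is abundant in atrial granules, went from 463 ± 111 to 183 ± 41.4 CPM (-1.28, SE 0.29, edgeR adjusted p = 0.0115). This list summed to 939 CPM in Vehicle replicate 1 and 816.5 CPM in Vehicle replicate 2, where Nppa held 0 and 339 counts. Which cells of the lung made Pam was not tested. Npr2, the receptor of C-type natriuretic peptide, had -1.46 (SE 0.34, edgeR adjusted p = 0.0129). Nppa, which encodes the ligand of Npr1, had an estimate of -1.51 with an SE of 1.98 in the same comparison, and the 2 estimates were not compared by a test. Without Vehicle replicate 1, Npr1 alone of the 3 was still called in LPS against Vehicle. In LPS+TSLP against Vehicle, Npr1 (-0.99, SE 0.24, edgeR adjusted p = 0.0234) and Pam (-0.997, SE 0.27, edgeR adjusted p = 0.0321) fell, and neither was called without Vehicle replicate 1, Vehicle replicate 2, LPS+TSLP replicate 2 or LPS+TSLP replicate 3.

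Of 21 tested sarcomere and Z-disc genes outside the 10, 2 rose with LPS and none fell. Over all 17139 genes tested, 2437 were called higher and 1836 lower. Nexn, a Z-disc protein that smooth and non-muscle cells also make, rose from 2.61 ± 0.78 to 22.5 ± 3.61 CPM (log2 fold change 3.18, SE 0.41, edgeR adjusted p = 0.00196) and stood at 24.5 ± 9.84 CPM in LPS+TSLP (3.26 against Vehicle, SE 0.40, edgeR adjusted p = 0.0021). Ankrd1, a stress-responsive nuclear and sarcomeric protein, rose from 29.7 ± 18.5 to 73.8 ± 31.2 CPM (1.38, SE 0.41, edgeR adjusted p = 0.0319), and its call was lost without Vehicle replicate 1, Vehicle replicate 3, LPS replicate 1 or LPS replicate 3. The highest Vehicle level of Nexn was 3.35 CPM and the lowest LPS level 20.3 CPM, so Nexn did not share the library order of Actn2 or Myh6. Of 10 tested cardiac transcription factors, Prdm16 (-1.13, SE 0.23, edgeR adjusted p = 0.00814), Myocd (-2.96, SE 0.71, edgeR adjusted p = 0.014) and Gata6 (-1.34, SE 0.42, edgeR adjusted p = 0.0395) fell and Mef2a (1.63, SE 0.42, edgeR adjusted p = 0.0177) rose with LPS. Among all genes tested, 10.7% were called lower and 24.9% in either direction. Myocd was not called without LPS replicate 1, Mef2a without Vehicle replicate 1 or Vehicle replicate 2, and Gata6 without any 1 of Vehicle replicates 1 and 2 and the 3 LPS replicates. All 4 factors also act outside the heart, Myocd in smooth muscle.

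Smooth muscle markers fell in part with LPS: 5 of 10 were called lower. Myh11, the smooth muscle myosin heavy chain, went from 329 ± 70.9 to 89.9 ± 32.0 CPM (log2 fold change -1.81, SE 0.34, edgeR adjusted p = 0.0055). The summed level of the list was 1216, 1770 and 1692 CPM in Vehicle, 599, 827 and 646 CPM in LPS and 1342, 892, 875 and 1206 CPM in LPS+TSLP. Smooth muscle makes some Actc1 as well, and both levels were lower in all 3 LPS libraries than in all 3 Vehicle libraries. So were the sums of the calcium handling, natriuretic, ventricular, venous endothelial and mesothelial lists, so smooth muscle was not alone in this. Within groups, Actc1 and the smooth muscle sum shared their highest library in Vehicle and LPS+TSLP but not in LPS. Their order also differed between Vehicle replicates 1 and 3 and between LPS+TSLP replicates 2 and 3. The part of smooth muscle in the Actc1 call was not tested. The count of 5, where 10.7% of all genes tested were called lower, became 7 without LPS+TSLP replicate 1, 1 without Vehicle replicate 2, 3 without Vehicle replicate 3, LPS replicate 1 or LPS replicate 3, and the call of Myh11 was kept in every fit with 1 library left out. Of the ventricular markers Myh7 fell, with a log2 fold change of -3.80 (SE 0.69, edgeR adjusted p = 0.00514), in all 18 alternatives. Energy genes of striated muscle had 1 of 11 lower (Slc2a4, -1.79, SE 0.59, edgeR adjusted p = 0.0469, lost without any 1 of 7 libraries), and skeletal muscle markers had 0 of 11 called by edgeR, 1 at an unadjusted p under 0.05 and 1 called by DESeq2. Venous endothelial markers had 2 of 6 lower, Vwf (-1.78, SE 0.50) and Ephb4 (-1.04, SE 0.29), both lost without Vehicle replicate 1, Vehicle replicate 2, LPS replicate 1 or LPS replicate 2. Lung epithelial and endothelial markers had 1 of 12 lower (the endothelial cadherin Cdh5, -0.92, SE 0.30, edgeR adjusted p = 0.0428), a call lost without any 1 of 6 libraries and with the GC trend removed. The count of 1 became 6 without LPS+TSLP replicate 1, 6 with the groups compared alone and 4 with the DESeq2 Wald test. Mesothelial markers had 1 of 5 lower (Upk1b, -1.75, SE 0.36, edgeR adjusted p = 0.00841). Of the 4 tested markers of mediastinal fat, thymus and thyroid, the fat droplet genes Cidec (-2.24, SE 0.42, edgeR adjusted p = 0.0056) and Plin1 (-3.77, SE 1.06, edgeR adjusted p = 0.026) were lower, and the call of Plin1 was lost without Vehicle replicate 1, Vehicle replicate 2, LPS replicate 1 or LPS replicate 2. The count of 2 became 4 without Vehicle replicate 3 and 1 without Vehicle replicate 1 or Vehicle replicate 2. That list summed to 17.2 to 52.4 CPM in Vehicle, with Vehicle replicate 2 the highest, and to 13.0 to 18.8 CPM in LPS and 8.82 to 18.9 CPM in LPS+TSLP; the part of such tissue in the cardiac levels was not tested. With the GC trend removed, the calls of Mef2a (0.93, edgeR adjusted p = 0.0646), Gata6 (-1.07, 0.0879), Ephb4 (-0.75, 0.0991) and Slc2a4 were lost as well. Gata6 was also lost with no filter, Slc2a4 with limma-voom and the replicate block, and Plin1 with the replicate block (-3.95, edgeR adjusted p = 0.0544). In LPS+TSLP against LPS no gene of any of the 12 lists was called by edgeR, in any of the 18 alternatives, DESeq2 and limma-voom included, and 0 to 3 per list of their tested genes had an unadjusted p under 0.05.

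The genes whose levels followed the 10 cardiac genes most closely were found among 15211 other genes with a mean of at least 1 CPM, by the Pearson correlation over the 10 libraries of their log2 CPM with the average centred level. The first 5 were Myom2 (r = 0.98, rho = 0.96), which ties thick filaments together at the M-band, Hrc (0.98, 0.91), a calcium binding protein of the sarcoplasmic reticulum, Ckmt2 (0.98, 0.93), the muscle mitochondrial creatine kinase, Mybphl (0.98, 0.96), a relative of myosin-binding protein, and Actn2 (0.98, 0.94), the alpha-actinin of the Z-disc. Of these 5 genes 4 stood on the lists of other muscle genes, as did 7 of the first 10 and 21 of the first 40. Mybphl was at 9.69 CPM in Vehicle replicate 2, 14.2 CPM in LPS+TSLP replicate 1, 3.49 CPM in LPS replicate 3 and 2.89 CPM in LPS+TSLP replicate 3, and at 0 in LPS replicate 2, LPS+TSLP replicate 2 and LPS+TSLP replicate 4. Ckmt2 ran from 0 CPM in LPS replicate 2 and LPS+TSLP replicate 2 to 20.4 CPM in LPS+TSLP replicate 1. These correlations describe 10 libraries and share their scaling.

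Genes of airway secretory cells stood high in some of the same libraries. Bpifa1, Bpifb1, Scgb3a1 and Agr2, products of the secretory cells and glands of larger airways, were chosen after their values were seen and correlated with the average cardiac level at 0.91, 0.91, 0.87 and 0.89. By this same correlation they ranked 23, 25, 36 and 31 of the 15211 genes, so high values came with the choice. Scgb1a1, Scgb3a2 and Foxj1, airway genes of the lung epithelial list, were not among the first 40. Bpifa1 was at 7.08, 782 and 16.6 CPM in Vehicle, at 51.3, 0.0569 and 263 CPM in LPS and at 485, 0.934, 4.72 and 0.851 CPM in LPS+TSLP. The 3 libraries with most Bpifa1 were those with most Myl7, while LPS+TSLP replicate 3 had 354 counts of Myl7 and 85 of Bpifa1. Scgb3a1 held 4346 counts in that library, or 241 CPM, near its 274 CPM in LPS replicate 3. Which part of the lung was sampled in each library is not given in the labels, and its part in the spread of the cardiac genes was not tested.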

How the data were processed

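The values analysed are raw read counts of genes as deposited by the authors, who used HISAT2, HTSeq 0.6.0 and CASAVA with the mouse build GRCm38/mm10, per the submitters' processing notes. The annotation release and the strand setting of counting are not given in the sources used here, so reads of Actc1, Myh6, Myl4, Nppa and Ryr2 may not be separable from genes on the opposite strand that overlap them. The values were whole numbers. Of 54532 genes, 54495 were in GENCODE M21, which gave positions and exon lengths, and 27 symbols turned into dates were restored.

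Genes kept by filterByExpr (17139, with all 10 cardiac genes) were scaled by TMM. Group differences were tested by robust quasi-likelihood in edgeR 4.0.16 (R 4.3.3), in a single fit of the 3 groups with 7 residual degrees of freedom. Calls needed an adjusted p under 0.05 (Benjamini-Hochberg over all genes tested, two-sided). SE is the log2 fold change divided by the square root of F. CPM uses library totals, and log2 CPM a prior count of 2.

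The cardiac genes and the other lists were chosen with earlier results of these data known. From each other list, up to 4 called genes with the smallest adjusted p could be named, plus the 5 most similar genes. Some other markers (Irx4, Myl2, Myl3, Nkx2-5, Bmp10, Acta1, Myh4, Pvalb and Myod1) were named after their values were seen. Alternatives were DESeq2 1.42.0 size factors and Wald test, limma-voom (limma 3.58.1), no filter, the groups compared alone, a replicate block, removal of a GC trend and leaving out libraries. They were applied to the other lists after the data were seen. The fit was tested on simulated counts. Same-numbered libraries had correlations from -0.34 to 0.40 (3 of 9 over 0.1). Libraries with different numbers were not correlated for comparison, so these values do not show whether the numbers mark pairs. The main fit did not take them as pairs, and the replicate block was run as an alternative. No 2 libraries of a group agreed within sampling noise (chi-square per degree of freedom at least 33.0 over 12 pairs).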

Additional observations from a re-analysis of the deposited data

Results flagged for a closer look

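In LPS+TSLP, replicate 1 was the highest library for all 10 cardiac genes, and it was flagged as far from the other 3 libraries for 2 of them. Its Nppa level was 1.98 CPM and the next highest 0.122 CPM, a gap of 0.939 of the whole range of the group. Its Ryr2 level was 12.4 CPM and the next highest 3.77 CPM, a gap of 0.963 of the range. Both gaps are above the 95% critical value of Dixon's test for 4 libraries. Only LPS+TSLP has 4 libraries, so 10 groups of values were examined. Chance flags about 1 in 20 where values are independent and normally distributed. The 10 genes moved together, with pairwise correlations of 0.68 to 0.99 once group means were taken out, so that rate cannot be applied to them.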

How the results depend on the processing

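With DESeq2 size factors or with the groups compared alone, every value that could be fitted kept its direction and its call. In LPS against Vehicle 1 cardiac gene was called, which became 0 with no filter, 0 with the replicate block, 0 with the GC trend removed and 2 with the DESeq2 Wald test, and ran from 0 to 2 when single libraries were left out. In LPS+TSLP against Vehicle none was called, which became 2 with both LPS replicate 1 and LPS+TSLP replicate 1 left out, and ran from 0 to 2 when single libraries were left out. The adjusted p of Actc1 was 0.139 with no filter, 0.0999 with the block and 0.0722 with the GC trend removed. DESeq2 gave Nppa no p, and Ryr2 passed by DESeq2 in LPS against Vehicle (-1.97, adjusted p = 0.0283). The cause of these changes was not tested. Over all genes, 4273 calls in LPS against Vehicle became 1661 without Vehicle replicate 1 and 1836 without Vehicle replicate 2, and 2428 in LPS+TSLP against Vehicle became 516 and 521. With the GC trend removed they were 3439 and 1411. The DESeq2 Wald test gave 5505 and 3925. Low counts limit the estimates of Nppa and Sln, which were at 0 in 4 and 2 libraries. Myh6 and Myl7 also came near 0, with 1 count each in LPS+TSLP replicate 4.

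With limma-voom the estimates that changed sign were 0.19 for Mybpc3, -0.54 for Tnnt2, 0.56 for Tnni3, -1.40 for Sln and 0.93 for Nppa in LPS against Vehicle, -0.77 for Myl7 in LPS+TSLP against LPS, and -1.70 for Myl7, -0.14 for Myl4 and -1.07 for Sln in LPS+TSLP against Vehicle. With the replicate block they were -0.84 for Tnnt2, 0.19 for Tnni3 and -0.99 for Sln, and with the GC trend removed 0.28 for Tnni3 and -0.0243 for Sln, both in LPS against Vehicle. With both LPS replicate 1 and LPS+TSLP replicate 1 left out they were 0.30 for Tnni3 in LPS against Vehicle, -1.22 for Myh6, -1.10 for Myl7, -1.23 for Myl4, -0.66 for Mybpc3, -0.78 for Tnnt2, -0.88 for Tnni3, -0.62 for Ryr2 and -2.23 for Sln in LPS+TSLP against LPS, and -1.51 for Myl7, -1.64 for Myl4, -0.84 for Mybpc3, -0.17 for Tnnt2, -0.58 for Tnni3 and -1.64 for Sln in LPS+TSLP against Vehicle. With single libraries left out, the log2 fold changes in LPS against Vehicle ran from -6.25 to 0.82 for Myh6, -2.19 to 2.12 for Myl7, -2.01 to 1.39 for Myl4, -1.28 to 1.70 for Mybpc3, -1.95 to -1.18 for Actc1, -1.74 to 1.34 for Tnnt2, -1.40 to 2.51 for Tnni3, -2.96 to -0.87 for Ryr2, -3.51 to 2.99 for Sln and -4.24 to 8.19 for Nppa. With single libraries left out, the log2 fold changes in LPS+TSLP against LPS ran from -0.66 to 4.97 for Myh6, -0.84 to 2.93 for Myl7, -0.90 to 2.31 for Myl4, -0.45 to 1.74 for Mybpc3, 0.41 to 1.36 for Actc1, -0.38 to 3.02 for Tnnt2, -0.54 to 2.30 for Tnni3, -0.25 to 1.49 for Ryr2, -1.69 to 3.91 for Sln and -2.53 to 0.84 for Nppa. With single libraries left out, the log2 fold changes in LPS+TSLP against Vehicle ran from -3.15 to 2.03 for Myh6, -1.50 to 3.51 for Myl7, -1.64 to 2.42 for Myl4, -0.84 to 2.53 for Mybpc3, -1.22 to -0.14 for Actc1, -0.17 to 2.42 for Tnnt2, -0.58 to 3.44 for Tnni3, -2.22 to -0.38 for Ryr2, -1.63 to 3.32 for Sln and -4.00 to 6.29 for Nppa. Without Vehicle replicate 2 the Vehicle group held 0 counts of Nppa, so its estimates of 8.19 and 6.29 depend on the prior count and are no measure of size.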
